A study of Mus musculus with 12 samples.

Results

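Protein tyrosine phosphatases and dual-specificity phosphatases were examined in C57BL/6 and AND-TCR–transgenic thymocytes. The group was defined by name, as every probe set outside the Affymetrix controls whose single annotated gene symbol began with Ptpn, Ptpr, Ptp4a or Dusp, and 2 symbols with these stems are not described here. This gave 60 genes, of 15964 named by probe sets with 1 gene symbol, and they were measured by 134 of 36701 probe sets. The RNA came from total adult thymocytes, either from wild-type C57BL/6 mice or from mice carrying the AND-TCR transgene, a rearranged T-cell receptor that recognizes MHC class II, whose thymocytes had been positively selected on the H-2b background. C57BL/6 mice are themselves H-2b, so that both groups shared this MHC haplotype. The Affymetrix arrays U74Av2, U74Bv2 and U74Cv2 were each hybridized 2 times per group, 12 arrays in all. The promoter of the transgene, the genetic background of the transgenic mice beyond H-2b, the number of mice behind each RNA and their sex are not stated in the labels or methods. The paper describes 2 independent experiments, but does not say whether the hybridizations came from separate mice. The p-values below therefore measure the spread between hybridizations, which may be technical.

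Tyrosine phosphatases remove the phosphate groups that kinases add to tyrosine residues, and in T cells they set the threshold of T-cell receptor signaling by acting on Lck, Fyn, Zap70 and the chains of the receptor itself. Receptor-type enzymes span the membrane, whereas non-receptor enzymes are recruited to signaling complexes from the cytosol. Dual-specificity phosphatases also act on serine and threonine, and the MAP kinase phosphatases among them inactivate ERK, JNK and p38, several being themselves induced by ERK as a feedback. Positive selection of thymocytes depends on a weak and sustained receptor signal that passes through ERK.

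Intensities are on a linear scale in arbitrary units, and a value counted as measured only above a detection limit set from the negative values of the arrays, which was 421 for U74Av2. The limit was 869 for U74Bv2, and U74Cv2 had the highest, 1579. Levels of different probe sets cannot be compared. A probe set was tested where both arrays of at least 1 group were above the limit. This held for 43 of the 134 phosphatase probe sets, belonging to 35 genes, and for 12844 probe sets in all. Of the 60 genes, 29 were above the limit on all 4 arrays at some probe set, 15 on no array at any, and 10 on at least 1 array without being tested. The 43 had thus to pass a filter on brightness and do not stand for all 134. On the log2 scale the difference is AND-TCR minus C57BL/6, estimated with limma and adjusted over all 12844 probe sets by the Benjamini-Hochberg method.

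None of the 43 tested phosphatase probe sets passed an adjusted p of 0.05 in limma, where 1.05% of all tested probe sets did. Of all probe sets 62 (0.483%) were called higher and 73 (0.568%) lower in AND-TCR–transgenic thymocytes. At an unadjusted p under 0.05 there were 4 phosphatase probe sets, or 9.3%, beside 14% of all probe sets. The nearest to the threshold were Dusp2 and Ptpn6, with higher readings in AND-TCR–transgenic thymocytes, and Ptpra, with lower ones. With the hybridization number added to the model as a block, these 3 passed, or 6.98% of the tested phosphatase probe sets beside 2.38% of all. Of them 2 were higher, where 1.21% of all tested probe sets were, and 1 was lower, where 1.18% were. These 3 calls therefore rested on the model chosen. In bulk RNA, fewer cells of a type and less RNA per cell cannot be told apart.

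Dusp2 encodes PAC-1, an inducible nuclear MAP kinase phosphatase of hematopoietic cells. Its U74Av2 probe set read 5853 and 5648 on the first and second C57BL/6 arrays and 9040 and 10391 on the AND-TCR arrays. Both AND-TCR values lay above both C57BL/6 values. The log2 difference was 0.75 (SE 0.14, 95% interval 0.41 to 1.09), or 1.69-fold, with an adjusted p in limma of 0.0693 and of 0.0129 with the block. It was 0.63 between the first hybridizations and 0.88 between the second. A second Dusp2 probe set, on U74Cv2, exceeded its limit only on the second AND-TCR array, at 1756, and was not tested.

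Ptpn6 encodes SHP-1, a cytosolic phosphatase with SH2 domains that is recruited to inhibitory receptors and dampens T-cell receptor signaling. Its single tested probe set, whose suffix marks probes shared by several transcripts, read 4363 and 4190 in C57BL/6 thymocytes. The AND-TCR values were 6340 and 7303, again without overlap. The log2 difference was 0.67 (SE 0.15, 95% interval 0.31 to 1.03), or 1.59-fold, with an adjusted p in limma of 0.113 and of 0.0469 with the block. The ratio was positive in both experiments, at 0.54 and 0.80 on the log2 scale.

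Ptpra is a widely expressed receptor-type phosphatase that removes the inhibitory phosphate from Src-family kinases such as Fyn. Its tested probe set read 3911 and 2405 in C57BL/6 thymocytes and 471 and 997 in AND-TCR–transgenic thymocytes. All 4 values were above the limit and the groups did not overlap, although the first AND-TCR value was near the limit and the arrays of each group lay far apart. The log2 difference was -2.16 (SE 0.44, 95% interval -3.20 to -1.12), or 4.48-fold lower, the largest in size among the tested phosphatase probe sets. Its adjusted p in limma was 0.0816, and 0.00741 with the block. It was -3.06 between the first hybridizations and -1.27 between the second. The other 2 Ptpra probe sets were above the limit on no array, so that the difference rests on 1 probe set.

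**Figure D1:**
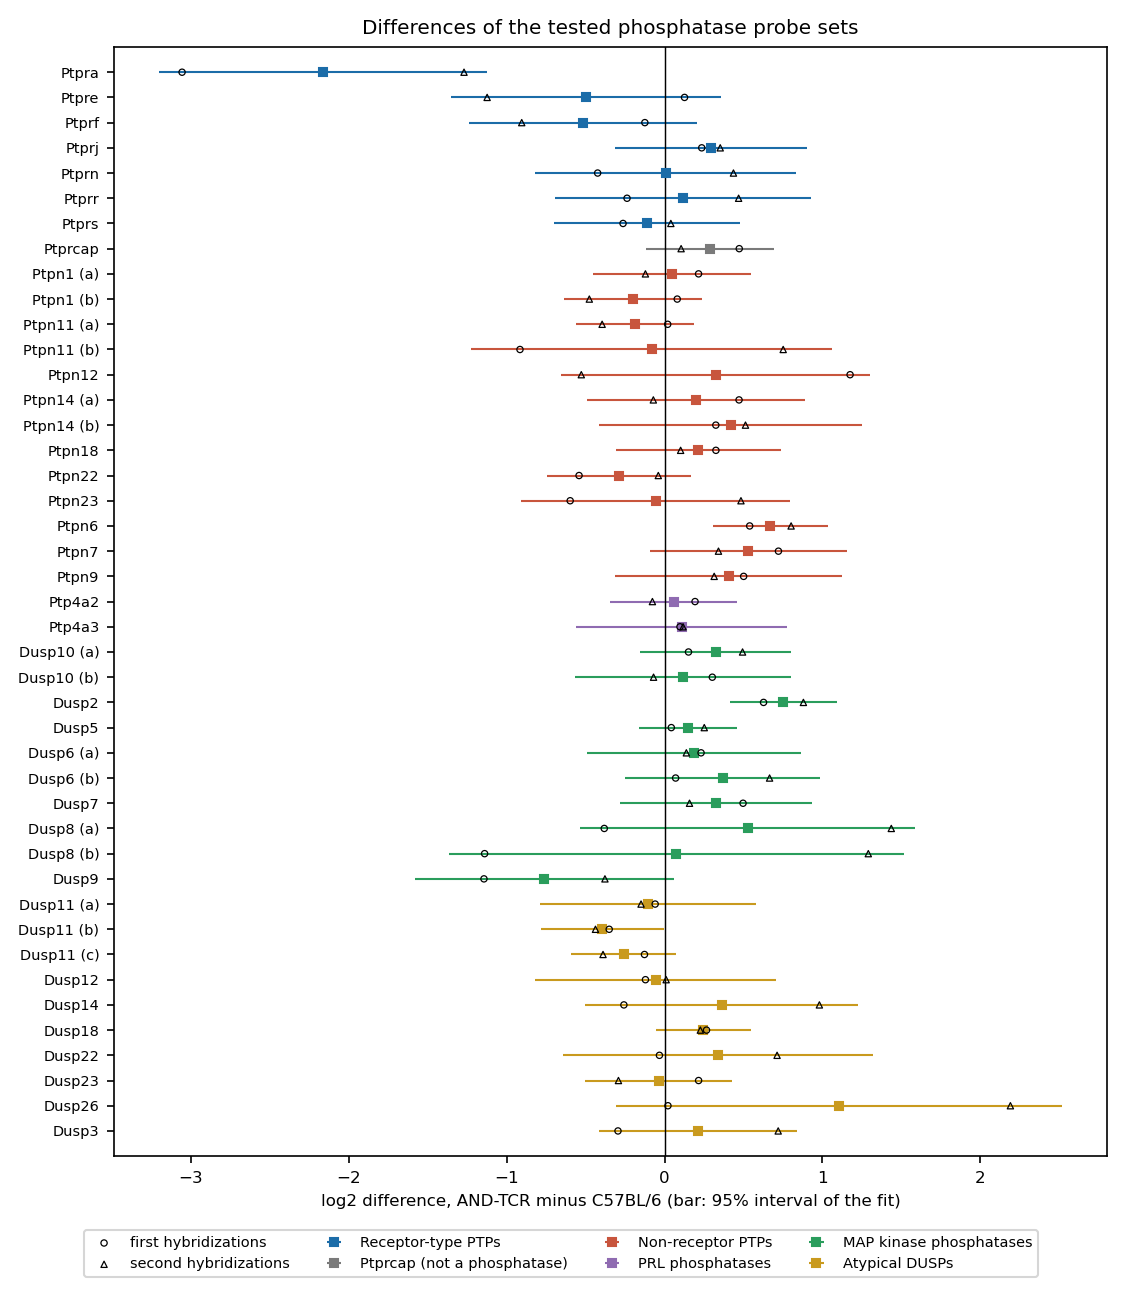
Log2 difference in intensity (x axis, AND-TCR minus C57BL/6) of each of the 43 tested phosphatase probe sets (y axis, letters tell apart probe sets of 1 gene), with squares for the limma estimate, bars for its 95% interval, circles for the first and triangles for the second hybridizations, and colors for the phosphatase class. Ptpra stands at -2.16 on the left, and Dusp2 and Ptpn6 stand at 0.75 and 0.67 with narrow bars to the right of 0.

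The windows of 250 bases upstream of the annotated starts of these 3 genes are shown because their readings came nearest to the threshold. They are taken from RefSeq on GRCm38.p6, which held a promoter for 47 of the 60 genes. They lie at chr2:127335909-127336158 on the plus strand for Dusp2, at chr6:124738710-124738959 on the minus strand for Ptpn6 and at chr2:130450028-130450277 on the plus strand for Ptpra. Each is printed 5′ to 3′ along its gene, and capitals mark every E-box, the motif CANNTG that E proteins and other basic helix-loop-helix factors can bind.
Dusp2: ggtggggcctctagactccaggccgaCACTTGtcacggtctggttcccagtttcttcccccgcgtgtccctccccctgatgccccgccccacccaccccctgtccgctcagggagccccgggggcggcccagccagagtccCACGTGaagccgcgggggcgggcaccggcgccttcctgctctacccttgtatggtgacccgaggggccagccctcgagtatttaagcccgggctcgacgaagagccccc
Ptpn6: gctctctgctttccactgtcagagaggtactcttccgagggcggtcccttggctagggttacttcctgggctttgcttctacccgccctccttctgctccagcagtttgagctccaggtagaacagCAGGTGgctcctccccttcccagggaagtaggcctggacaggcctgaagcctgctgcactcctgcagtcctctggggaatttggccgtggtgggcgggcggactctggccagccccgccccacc
Ptpra: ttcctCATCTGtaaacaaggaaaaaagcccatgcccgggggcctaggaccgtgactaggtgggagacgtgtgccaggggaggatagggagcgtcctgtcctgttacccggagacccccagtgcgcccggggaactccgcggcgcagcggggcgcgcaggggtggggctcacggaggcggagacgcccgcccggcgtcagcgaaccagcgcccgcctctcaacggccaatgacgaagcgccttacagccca

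The Dusp2 window held 2 E-boxes, and those of Ptpn6 and Ptpra held 1 each. An E-box is common in windows of this length. CANNTG occurred in 57.5% of the 40 promoters of the 30 tested phosphatase genes that had one, and in 57.3% of the 8171 promoters of all tested genes. The form CAGGTG, present at Ptpn6, occurred in 22.5% and 15.7%, and the form CACGTG, present at Dusp2, in 5% and 8.47%. On both strands together the GC box GGGCGG matched 3 times at Dusp2, 5 times at Ptpn6 and 1 time at Ptpra, and was found in 60% of the phosphatase promoters and 57.9% of those of all tested genes. The EGR motif GCGGGGGCG, which overlaps the GC box in the Dusp2 window, matched there and in 15% of the phosphatase promoters, or 6 of 40, beside 5.03% of those of all tested genes. CCAAT was found in 25% and 34.7%, and TATAAA in 2.5% and 6.41%. The promoters of 1 gene share sequence, and these matches describe letters only.

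Receptor-type phosphatases were the class with the fewest readings above background. Of 46 probe sets for 17 genes, 36 were above the limit on no array, and 7 probe sets for 7 genes were tested. Apart from Ptpra, the tested genes were Ptpre, Ptprf, Ptprj, Ptprn, Ptprr and Ptprs. Their median log2 difference, with Ptpra, was -0.11, with 3 positive and 4 negative values. In none of them were both AND-TCR values above both C57BL/6 values, and in 2, Ptpra and Ptprf, both were below, where 23% of all tested probe sets were above and 21.4% below.

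Ptprf, or LAR, is an adhesion-type receptor phosphatase found in immature thymocytes. It read 1630 and 2524 in C57BL/6 and 1495 and 1349 in AND-TCR–transgenic thymocytes, a log2 difference of -0.51 (SE 0.31, adjusted p in limma 0.524), which was -0.12 between the first and -0.90 between the second hybridizations. The groups did not overlap, but the closest values of the groups, 1630 and 1495, lay nearer to each other than the 2 C57BL/6 values did. Ptpre, a close relative of Ptpra, read 1467 and 2103 against 1602 and 965, with overlapping groups and a log2 difference of -0.50 (SE 0.36, adjusted p in limma 0.612). Its ratio was 0.13 between the first hybridizations and -1.12 between the second. The remaining 4 of these genes had log2 differences from -0.11 for Ptprs, another LAR-family member, to 0.29 for Ptprj, also known as CD148, which acts on Src-family kinases.

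Of the receptor-type genes, 7 were above the limit on no array: Ptprb, Ptprd, Ptprm, Ptprn2, Ptpro, Ptpru and Ptprz1. Ptprk, in which a deletion in rats impairs the development of CD4 thymocytes, reached 458 in the first C57BL/6 hybridization to U74Av2 and was under the limit in the other 3, so that it was not tested, and the same held for Ptprg and Ptprv, which exceeded the limit on 2 and 1 arrays. Ptprcap, whose symbol carries the same stem, encodes a lymphocyte membrane protein that binds a receptor phosphatase and has no phosphatase activity itself. It had the highest mean of the group on U74Av2, at 12610 and 17142 in C57BL/6 thymocytes and 17506 and 18438 in AND-TCR–transgenic thymocytes. The groups did not overlap, but the first AND-TCR and second C57BL/6 values lay close together, and the log2 difference was 0.29 (SE 0.17, adjusted p in limma 0.524).

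**Figure D2:**
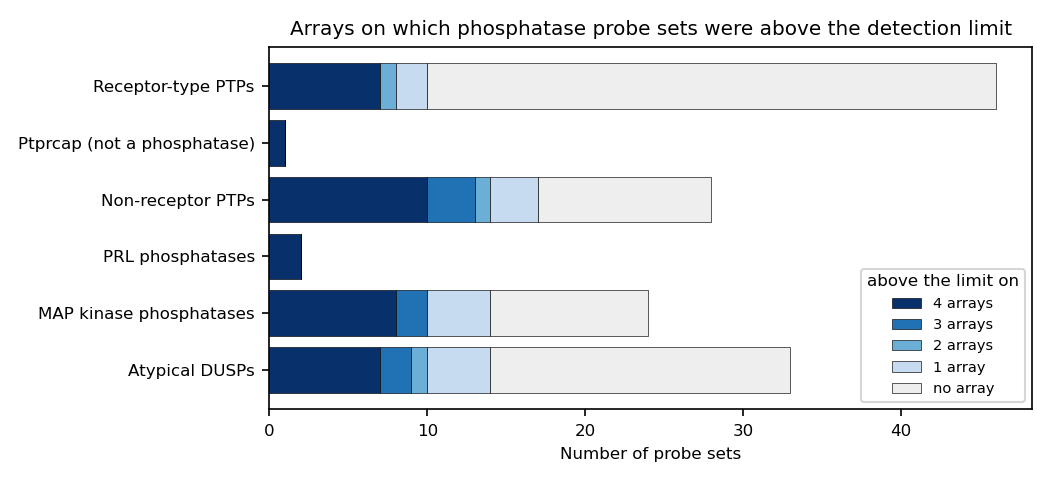
Number of probe sets (x axis) in each phosphatase class (y axis), divided by the number of arrays, of 4, on which they were above the detection limit. Gray fills most of the receptor-type bar (36 of 46 probe sets on no array), while 10 of 28 non-receptor and 8 of 24 MAP kinase phosphatase probe sets were above the limit on all 4 arrays.

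The 17 non-receptor genes had 28 probe sets, of which 13 for 10 genes were tested. Their median log2 difference was 0.20, with 8 positive and 5 negative values, and the values ran from -0.29 for Ptpn22 to 0.67 for Ptpn6. Among the positive ones, the probe sets of Ptpn9 and Ptpn12 passed the filter only through the AND-TCR arrays. A probe set of Ptpn14 passed it only through the C57BL/6 arrays. Both AND-TCR values were above both C57BL/6 values in 3, Ptpn6, Ptpn7 and Ptpn18, and below in 1, Ptpn22, so that the share above was that of all tested probe sets, 23%, beside 21.4% below.

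Ptpn22, also known as PEP, pairs with the kinase Csk and dephosphorylates Lck and Zap70. It read 6807 and 6839 in C57BL/6 thymocytes, which agreed closely, and 4678 and 6655 in AND-TCR–transgenic thymocytes. The log2 difference of -0.29 (SE 0.19, adjusted p in limma 0.576) came from the first hybridizations, at -0.54, since the second gave -0.04. Ptpn7, or HePTP, is a hematopoietic enzyme that dephosphorylates ERK and p38. Its U74Cv2 probe set read 4973 and 5344 against 8199 and 6772, a log2 difference of 0.53 (SE 0.26, 95% interval -0.09 to 1.16, adjusted p in limma 0.434) with the same sign in both experiments, 0.72 and 0.34.

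Ptpn9, or MEG2, a phosphatase of secretory vesicles, was dim, with 419 and 608 in C57BL/6 thymocytes, the first of them under the limit, and 595 and 756 in AND-TCR–transgenic thymocytes. The groups overlapped, and the log2 difference was 0.41 (SE 0.31, adjusted p in limma 0.621), which became 0.142 without the first and 0.674 without the second C57BL/6 hybridization. The other tested non-receptor genes were Ptpn1, Ptpn11, Ptpn12, Ptpn14, Ptpn18 and Ptpn23, with log2 differences between -0.20 and 0.42. Among them are Ptpn11, or SHP-2, which promotes signaling through Ras and ERK, and Ptpn1, or PTP1B, which acts on the insulin receptor and on Jak2. The first Ptpn11 probe set read 5583 and 6604 against 5661 and 5022, a log2 difference of -0.19. Its 95% interval of -0.56 to 0.18 leaves out any change of 2-fold at this probe set. The other tested Ptpn11 probe set, whose suffix marks probes shared within a family of sequences, may not read Ptpn11 alone. It read 1986 and 1390 against 1053 and 2341, a log2 difference of -0.08. Its 95% interval of -1.23 to 1.06 included 2-fold changes in either direction, and the experiments had opposite signs, -0.92 and 0.75. The remaining Ptpn11 probe set, on U74Av2, was above the limit on no array. Ptpn2, or TC-PTP, which dephosphorylates Jak1 and Jak3, exceeded the limit only on the first AND-TCR array of U74Av2, at 980, and was not tested, nor were Ptpn3 and Ptpn13. Ptpn4, Ptpn5, Ptpn20 and Ptpn21 were above the limit on no array.

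The PRL phosphatases are small prenylated enzymes that are associated with cell growth. Ptp4a2 and Ptp4a3 had 1 probe set each, above the limit on all 4 arrays, with log2 differences of 0.06 and 0.11. Ptp4a3 read 2950 and 4512 in C57BL/6 thymocytes and 3157 and 4894 in AND-TCR–transgenic thymocytes. Both of its second hybridizations were thus well above both of its first, whereas the ratio was about the same in each, 0.10 and 0.12 on the log2 scale.

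The MAP kinase phosphatases had 9 genes and 24 probe sets, of which 10 for 7 genes were tested. Of these 10, 9 had positive differences and 1 was negative, with a median log2 difference of 0.25. Both tested Dusp8 probe sets are among the positive ones. They passed the filter only through the AND-TCR arrays, which favors that direction. The median over all tested probe sets was 0.02, and 52% of those were positive. Both AND-TCR values were above both C57BL/6 values in 5 and below in 1, whereas 23% of all tested probe sets were above and 21.4% below. None of the 10 passed an adjusted p of 0.05 in limma, and Dusp2 was the only one to pass with the block.

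Dusp5, Dusp6, Dusp7 and Dusp9 act mainly on ERK, Dusp5 in the nucleus and the others in the cytoplasm. Dusp5 read 5839 and 5485 in C57BL/6 thymocytes and 6015 and 6531 in AND-TCR–transgenic thymocytes, and had the highest mean of the group on U74Bv2. Its log2 difference was 0.15 (SE 0.13, 95% interval -0.16 to 0.46, adjusted p in limma 0.676), an interval that leaves out a rise or fall of 2-fold. Dusp6, a target of ERK that feeds back on it, read 2480 and 2069 against 2604 and 3282 on U74Bv2, a log2 difference of 0.37 (SE 0.25, adjusted p in limma 0.590). The AND-TCR values were higher, by little between the first hybridizations, 0.07, and by more between the second, 0.67. On U74Av2 another Dusp6 probe set read 1482 and 1309 against 1740 and 1441, with overlapping groups and a log2 difference of 0.18 (adjusted p in limma 0.834).

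Dusp7 read 1980 and 2162 in C57BL/6 and 2794 and 2412 in AND-TCR–transgenic thymocytes, without overlap, a log2 difference of 0.33 (SE 0.24, adjusted p in limma 0.631). Dusp9 was the negative member of the class. It read 1369 and 886 against 620 and 682, a log2 difference of -0.76 (SE 0.35, 95% interval -1.58 to 0.06, adjusted p in limma 0.399), from a probe set whose suffix marks probes chosen under relaxed rules. The difference was -0.446 without the first C57BL/6 hybridization and -0.388 with the floor at 2 times the limit. The groups did not overlap, yet the 2 C57BL/6 values differed by more than the second C57BL/6 value did from either AND-TCR value. Of the 8 Dusp9 probe sets this was the only one tested. Another, on U74Cv2, exceeded its limit only on the first C57BL/6 array, at 2182, and the rest were above the limit on no array.

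Dusp8, Dusp10 and Dusp16 act mainly on JNK and p38. Dusp10 read 2970 and 2809 against 3300 and 3957, a log2 difference of 0.32 (SE 0.19, adjusted p in limma 0.540), and its other probe set read 1786 and 2336 against 2202 and 2226, with overlapping groups and a log2 difference of 0.12 (adjusted p in limma 0.901). Dusp8 had large differences of opposite sign in the 2 experiments, -0.38 and 1.44 on U74Av2 and -1.14 and 1.29 on U74Bv2. On U74Bv2 it read 2379 and 342 in C57BL/6 thymocytes and 1080 and 2127 in AND-TCR–transgenic thymocytes, so that the first C57BL/6 and the second AND-TCR arrays were the bright ones. Dusp16 and Dusp4, the latter a nuclear phosphatase of ERK, each exceeded the limit on 1 array, at 528 and 1256, and were not tested.

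**Figure D3:**
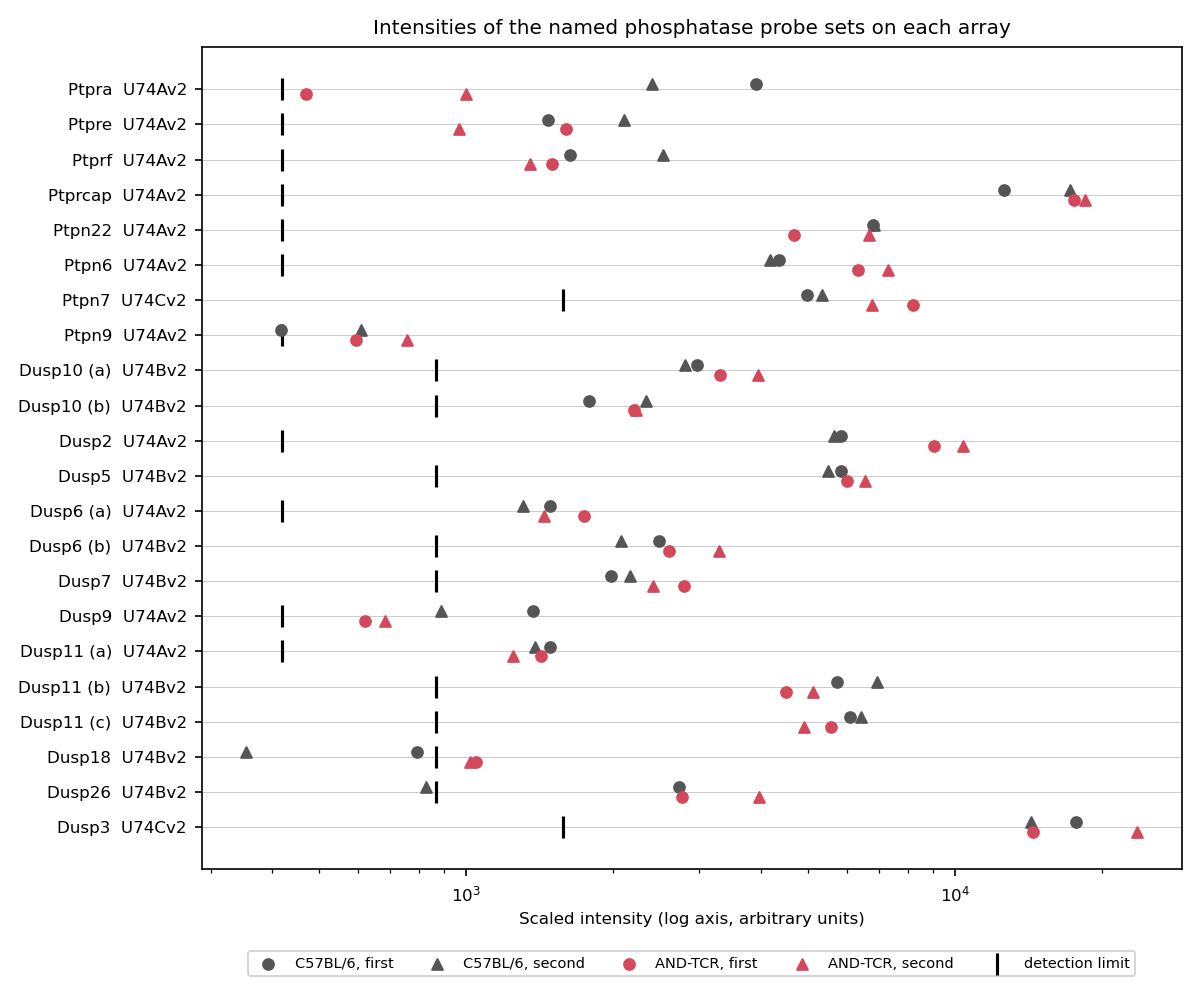
Scaled intensity (x axis, log scale, arbitrary units) of each tested probe set of the 18 genes described array by array (y axis, with its array type), circles for the first and triangles for the second hybridizations, gray for C57BL/6, red for AND-TCR, and black ticks for the detection limit. Red and gray symbols are apart for Dusp2 (5648 to 5853 against 9040 to 10391), Ptpn6 and, in the other direction, Ptpra (2405 to 3911 against 471 to 997), and are mixed or near each other for most other genes.

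The atypical dual-specificity phosphatases lack the domain by which MAP kinase phosphatases dock on their substrates, and several of them act on other substrates. Of 14 genes and 33 probe sets, 10 probe sets for 8 genes were tested, with 5 positive and 5 negative differences and a median of 0.09 on the log2 scale. Dusp13, Dusp15, Dusp21 and Dusp27 were above the limit on no array.

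Dusp11, also known as PIR1, removes phosphates from the 5′ end of RNA. It was the gene of the group with the most tested probe sets, 3, and all had negative differences. The first on U74Bv2 read 5745 and 6930 in C57BL/6 thymocytes and 4507 and 5118 in AND-TCR–transgenic thymocytes, a log2 difference of -0.39 (SE 0.16, 95% interval -0.78 to -0.00498, adjusted p in limma 0.351). The second read 6085 and 6420 against 5573 and 4902, a log2 difference of -0.26 (SE 0.13, adjusted p in limma 0.474). In both the groups did not overlap. On U74Av2 the values were 1482 and 1382 against 1422 and 1247, with overlapping groups and a log2 difference of -0.10 (adjusted p in limma 0.916).

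Dusp26 had a difference of 1.11 on the log2 scale, with an interval that included 0 (SE 0.57, 95% interval -0.30 to 2.52, adjusted p in limma 0.467). It read 2725 and 829 in C57BL/6 thymocytes, the second under the limit, and 2767 and 3968 in AND-TCR–transgenic thymocytes. The first hybridizations were thus nearly equal, with a difference of 0.02, and the second gave 2.19 with the C57BL/6 value set to the limit. Without that C57BL/6 hybridization the difference was 0.282, without the other it was 1.93, and with the floor at 2 times the limit it was 0.606. Dusp18, found at mitochondria, was under the limit on both C57BL/6 arrays, at 792 and 355, and above it on both AND-TCR arrays, at 1045 and 1017. With the C57BL/6 values set to the limit, the AND-TCR mean was at least 1.19-fold higher, a log2 difference of 0.25 with a 95% interval of -0.06 to 0.55 that included 0 and an adjusted p in limma of 0.448. The probe set passed the filter only through the AND-TCR arrays, so that its direction was fixed by the filter, and the size of the difference followed the floor, at 0.814 on the log2 scale with the floor at 0.5 times the limit. The other Dusp18 probe sets were above the limit on no array.

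Dusp3, or VHR, a small enzyme that can act on ERK and JNK, had the highest mean of the group on U74Cv2, at a probe set chosen under relaxed rules. It read 17685 and 14329 in C57BL/6 and 14418 and 23602 in AND-TCR–transgenic thymocytes, with overlapping groups and a log2 difference of 0.21 (SE 0.26, adjusted p in limma 0.788) that was -0.29 in the first and 0.72 in the second experiment. The other Dusp3 probe sets, all on U74Bv2, did not share this brightness. One of them exceeded the limit on the second AND-TCR array only, at 2925, and the others on no array. The remaining tested genes of this class were Dusp12, Dusp14, Dusp22 and Dusp23, with log2 differences between -0.06 and 0.36 and overlapping groups in each. Dusp22 is known to dephosphorylate Lck, and Dusp14 to act on the kinase Tak1. Dusp19 and Dusp28 each exceeded the limit on 1 array and were not tested.

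Over all 43 tested phosphatase probe sets, the median log2 difference was 0.12, with 28 positive and 15 negative values. Among the positive ones, the probe sets of Dusp8, Dusp18, Dusp26, Ptpn9 and Ptpn12 passed the filter only through the AND-TCR arrays. That route favors a positive difference. Only a probe set of Ptpn14 and that of Dusp23 passed through the C57BL/6 arrays alone. The size of the differences was like that of other probe sets. The median absolute difference was 0.26 on the log2 scale, as over all 12844 tested probe sets, and 81.4% of the phosphatase probe sets differed by less than 0.5, beside 77.7% of all. Ptpra and Dusp26, or 4.65%, reached a 2-fold difference, beside 4.34% of all, although Dusp26 did not with the higher floor. For 27 of 43, or 62.8%, the 95% interval lay within 2-fold in either direction, beside 54.7% of all, and for the others it extended past 2-fold. The groups did not overlap in 17, or 39.5%, with AND-TCR above in 11 (25.6%) and below in 6 (14%), where 44.4% of all probe sets did not overlap. Dusp18 and Dusp26 are among the 11. The share of phosphatase probe sets without overlap was thus not above that of the arrays as a whole.

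The 2 experiments agreed in direction for 23 of the 43 phosphatase probe sets, or 53.5%, beside 57.7% of all tested probe sets. Across these 43 probe sets, which are not independent replicates and share their arrays, the Pearson correlation between the log2 ratios of the first and the second hybridizations was 0.13, and over all tested probe sets it was 0.28. Of the 7 genes with more than 1 tested probe set, 6 had differences of 1 sign at all of them. The exception was Ptpn1, at 0.05 on U74Av2 and -0.20 on U74Bv2. Ptpn11 was counted among the 6 with its probe set of shared probes.

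**Figure D4:**
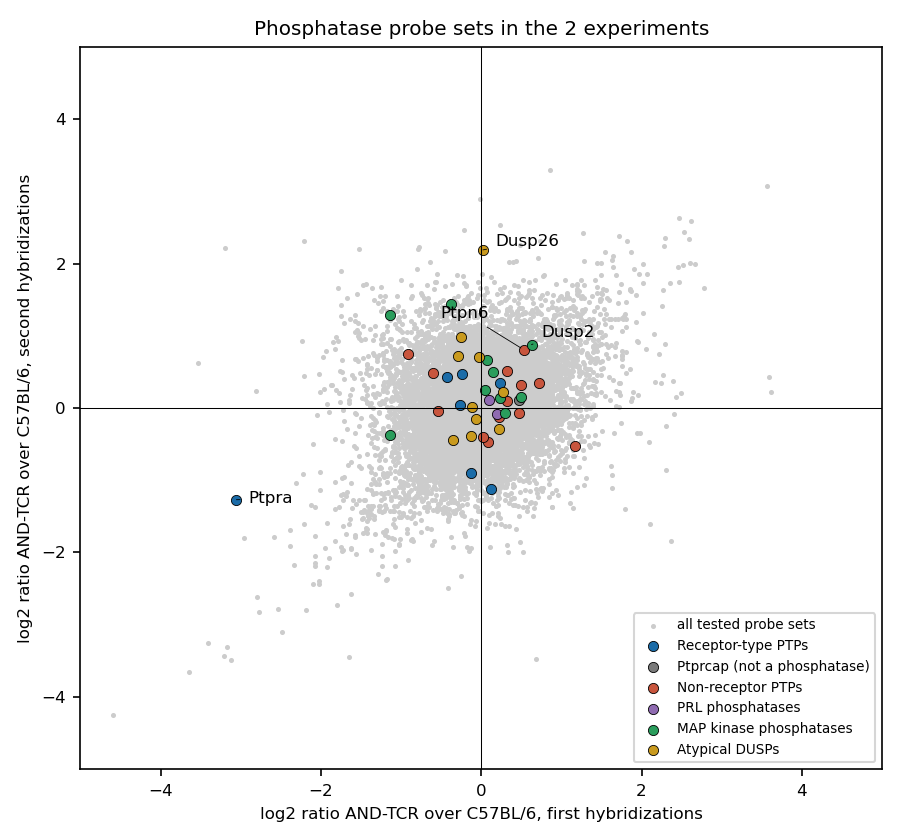
Log2 ratio of AND-TCR over C57BL/6 in the second hybridizations (y axis) against the first (x axis) for all 12844 tested probe sets (light gray) and the 43 phosphatase probe sets (colors by class). Dusp2 and Ptpn6 lie to the upper right of the origin and Ptpra to the lower left at -3.06 and -1.27, whereas Dusp26 lies on the vertical axis at 0.02 and 2.19.

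The kinases and adaptors on which these phosphatases act gave no call either. Of 17 tested genes for T-cell receptor chains, kinases and adaptors, none passed an adjusted p of 0.05 in limma at any of 28 probe sets, and their median log2 difference was -0.02. With the block 3 of 28 passed, where 2.38% of all tested probe sets did. These were Csk and Fyn with higher and Tec with lower values, chosen here after their values were seen. Csk, the kinase that adds the inhibitory phosphate which Ptpra removes, read 5296 and 6571 against 7902 and 10596 (log2 difference 0.63, SE 0.19, adjusted p in limma 0.207 and 0.0351 with the block). Fyn, one of its targets, read 1301 and 1813 against 3686 and 3787 (log2 difference 1.28, SE 0.24, adjusted p in limma 0.0671 and 0.00914 with the block). Tec, a kinase that acts on phospholipase C, read 1361 and 1760 against 336 and 524, with the first AND-TCR value under the limit (log2 difference -1.72, SE 0.33, adjusted p in limma 0.0693 and 0.0213 with the block). The 14 tested genes of MAP kinases and their upstream kinases had 12 positive and 12 negative differences over 24 probe sets with none called under either model. The 9 tested genes of the Jak kinases and Stat factors had 11 positive and 3 negative differences with a median of 0.20, also with none called.

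Genes induced by ERK were a short list of 7 tested genes with 9 probe sets, 7 of them positive, and a median log2 difference of 0.64. The list held 12 genes, and Spry1 and Spry2 were above the limit on no array. None of the 9 probe sets passed in limma without the block. With it 2 of 9 passed, where 2.38% of all tested probe sets did. These were Egr1 and Ier2, both immediate early genes, chosen here after their values were seen. Egr1 read 3008 and 4331 in C57BL/6 and 5435 and 8297 in AND-TCR–transgenic thymocytes (log2 difference 0.90, SE 0.26, adjusted p in limma 0.192 and 0.00808 with the block). Ier2 read 2676 and 2314 against 4437 and 5754 (log2 difference 1.02, SE 0.20, adjusted p in limma 0.0759 and 0.0139 with the block). Of the 9 probe sets 2 had negative differences. A probe set of Nr4a1 was among these, at 1410 and 2833 against 1267 and 1401 (log2 difference -0.58, SE 0.37, adjusted p in limma 0.558). Another Nr4a1 probe set had a log2 difference of 0.12.

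Marker genes of thymocyte stages differed between the groups. Of 9 tested genes that mark double-positive thymocytes, 8 were called lower at some probe set in AND-TCR–transgenic thymocytes, among them Rag1, Rag2 and Dntt. Of 8 that mark mature single-positive thymocytes 5 were called higher. Of all tested probe sets 0.568% were called lower and 0.483% higher. Cd8a and Cd8b1, also among the 8 lower genes, belong to the list of thymocyte identity as well. That list summed to 139315 and 148015 in C57BL/6 against 103545 and 111867 on U74Av2. Il7r, of the single-positive list, read lower, at 2176 and 1729 against 1425 and 1426 (log2 difference -0.44, adjusted p in limma 0.537). On U74Av2 the summed level of the double-positive markers was between 134876 and 138763 in C57BL/6 and between 47847 and 55546 in AND-TCR–transgenic thymocytes, and that of the single-positive markers between 18330 and 19499 and between 54561 and 55900. Gimap4, which the paper had picked from these arrays as IAN1, gave 17572 and 18633 of the AND-TCR sums. The B-cell list summed to 25651 and 26505 against 22379 and 24155, a sum made up mostly of 1 Ighm probe set, with Cr2 and Cd22 on no array above the limit. Its members did not move together. Of 11 tested probe sets 8 had negative and 3 positive differences, none was called in limma, and with the block 1 was called higher and 1 lower. These were a probe set of Blk, a Src-family kinase of B cells (1924 and 375 against 3496 and 4127, with the second C57BL/6 value under the limit), and another of Ighm, the heavy chain of immunoglobulin M (5665 and 6197 against 2820 and 1768). The macrophage and dendritic-cell list summed to 5635 and 7786 against 8162 and 7581, with Adgre1 and Itgam on no array above the limit.

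The list of red blood cells summed to 11025 and 13286 in C57BL/6 and 8435 and 6122 in AND-TCR–transgenic thymocytes, with Epor and Alas2 on no array above the limit. Hba-a1, a globin chain, read 9710 and 11407 against 6639 and 4378 (log2 difference -0.96, SE 0.22, adjusted p in limma 0.106 and 0.00877 with the block). The list of thymic epithelium and stroma summed to 2726 and 3036 against 3093 and 5579, with the second AND-TCR array apart from the others, and Krt5, Krt14, Foxn1, Cdh5 and Col3a1 were on no array above the limit. The part of these markers in the readings of the phosphatases was not tested.

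Xist was above the limit on U74Av2 only in C57BL/6 thymocytes, at 2878 and 3001. Its U74Bv2 probe set was under the limit on both C57BL/6 arrays, at 563 and 357, and above it only on the second AND-TCR array, at 1190. On U74Av2 the Y-linked Eif2s3y was above the limit only in AND-TCR–transgenic thymocytes, at 1649 and 1529, so that sex and transgene cannot be told apart. The same holds for the fluidics module, since all C57BL/6 arrays were run on module 2 and all AND-TCR arrays on module 4.

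A control probe set for 18S ribosomal RNA was bright on the first C57BL/6 and the second AND-TCR arrays of each type, at 5703 and 4930 on U74Av2 against 616 and 1445 on the others. Of the phosphatase probe sets, 7, or 16.3%, had their 2 highest values on the same arrays, beside 16.6% of all tested probe sets. They belonged to Dusp3, Dusp8 (both of its tested probe sets), Dusp14, Ptpn11, Ptpn23 and Ptprn. Dusp2, Ptpn6 and Ptpra could not be among them, because groups without overlap cannot show this pattern. Within each group, each of them read higher on the array with the brighter 18S reading. The part of the 18S signal in their readings was not tested.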

How the data were processed

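Total RNA from thymocytes of AND-TCR–transgenic and C57BL/6 mice had been labeled with biotin and hybridized by the authors to the 3 array types in 2 experiments, and scans had been analyzed with Microarray Suite 4.0. The deposited values are intensities with negative values, and neither their type nor the scaling target is given in the sources used here. The trimmed mean of each array, with 2% dropped at each end, lay between 1000.4 and 1000.9, so that the arrays had been scaled to a common level before deposition. The deposited experiment files record the day and the fluidics module of each array. The first C57BL/6 array of U74Av2, and no other array, carries the comment Re-rescan. The tested probe sets of Dusp2, Ptpn6 and Ptpra are on this array type, and an effect of the rescan was not tested.

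Each array was multiplied by 1 factor (0.99995 to 1.00004) to a common trimmed mean per array type. The detection limit was 2 noise SDs, estimated from the negative values (noise SD 210 on U74Av2, 435 on U74Bv2 and 789 on U74Cv2), and lower values were set to it before taking log2. Each array had 23.1% to 48.9% of its probe sets above it. The number of arrays limits the precision. Tests used limma 3.58.1 in R 4.3.3 (lmFit, and eBayes with a trend), 1 fit per array type, on probe sets that exceeded the detection limit on both arrays of 1 group or more, with p-values adjusted together. The script was tested on simulated data. Alternatives were the hybridization number as a block, other floors and filters, quantile normalization, no trend, and leaving out each hybridization. According to the file headers, hybridizations of the same number shared a day. Their deviations from the group means correlated at 0.04, -0.12 and -0.23 on U74Av2, U74Bv2 and U74Cv2.

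Gene names came from the platform annotation, and all 60 gene identifiers matched RefSeq of GRCm38.p6. The phosphatase genes, the lists and the rule for named genes were chosen with earlier results of these data known. The rule took the 16 phosphatase genes with the smallest p and, for each array type, the one with the highest mean. Plots and promoter searches used Python 3.11.15 with matplotlib 3.10.9.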

Additional observations from a re-analysis of the deposited data

How the results depend on the processing

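Leaving out 1 hybridization left a single array in 1 group, assumed to vary like the other group, and then 0 probe sets passed of any gene (against 135, and with 1290 to 1968 at an unadjusted p under 0.05), so that the 0 calls among the phosphatases say nothing about their stability. The log2 difference then ranged from 0.653 to 0.854 for Dusp2, from 0.568 to 0.772 for Ptpn6 and from -2.7 to -1.62 for Ptpra, and the median of the phosphatase probe sets from 0.0881 to 0.222. Differences of other probe sets moved by over 1.5 times, from -0.0359 (without the first AND-TCR hybridization) to -0.545 for Ptpn22, from 0.0677 (without the first C57BL/6 hybridization) to 0.511 for Ptprcap, from -0.199 (without the second) to -0.83 for Ptprf, and from -0.133 (without the second AND-TCR hybridization) to -0.863 for Ptpre. With the replicate block, 2 phosphatase probe sets were called higher and 1 lower, and 306 probe sets in all. It changed no other phosphatase call. Testing only probe sets that exceeded the limit on all 4 arrays, 1 was called higher (Dusp2, adjusted p in limma 0.037) and 1 lower (Ptpra, 0.0163), and 256 in all. Crossing the numbers, an alternative chosen after seeing the data, gave 1 higher and 1 lower phosphatase call and 455 in all. No phosphatase was called with the floor at 2 times or at 0.5 times the limit, with quantile normalization, without a trend or without a filter, where all calls numbered 140, 110, 168, 10 and 62. Without the filter most values were tied at the limit, which makes that fit unreliable. The adjusted p over the alternatives ranged from 0.0116 to 0.387 for Dusp2, from 0.0469 to 0.455 for Ptpn6 and from 1.26e-05 to 0.826 for Ptpra, apart from leaving out a hybridization. With 1 hybridization left out, the second Dusp10 probe set ranged from -0.0771 (without the first C57BL/6 hybridization) to 0.31 and Dusp3 from -0.143 (without the second AND-TCR hybridization) to 0.568, and the cause was not tested. Of the other values of single probe sets under an alternative, 250 kept their direction and side of the threshold and 7 passed it only under the alternative.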
